A study of Mus musculus with 6 samples.

Results

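Translation factors are the proteins that bring a ribosome to an mRNA, find its start codon and then move the ribosome along the message. Initiation factors (eIFs) assemble on the small ribosomal subunit: eIF2 carries the initiator tRNA, eIF3 is the large scaffold, and eIF4F (eIF4E, eIF4G and the helicase eIF4A) binds the cap of the mRNA. Elongation factors then take over: eEF1A delivers aminoacyl-tRNA and eEF2 moves the ribosome on by a codon. Adult muscle is known for replacing the widespread eEF1A1 by its paralog eEF1A2.

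The genes described here are all those of the deposited table whose symbol starts with Eif or Eef, without the 4E-BP genes, Eif2s3x, Eif2s3y and pseudogene names. There are 59 of them among 11815 genes. They were chosen by name, with earlier results of these data known. The values come from RNA sequencing of the gastrocnemius, a calf muscle, in mice lacking the long non-coding RNA lnc-ORA (KO, studied at an age of 15 weeks, with 5147 bp removed by CRISPR in C57BL/6 mice) and in wild-type mice (WT), for which no age of their own is labelled. The study asked how lnc-ORA acts on muscle fibre type. Each genotype has 3 libraries, numbered 2, 3 and 4 for WT and 1, 2 and 3 for KO. The labels do not say that each came from its own animal, so a p-value here covers no more than the spread among the 6 libraries, which may be technical. The deletion was made by injecting Cas9 mRNA and guides into fertilised eggs and is not limited to muscle, the labels do not give the number of founders, and neither the lnc-ORA level nor the deleted locus was analysed here, so genotypes were taken as labelled.

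Values are RPKM, reads scaled to gene length and to the library's counted reads, so levels of different genes can be compared per length. Counted reads, which were fitted from the values and not given in the sources, ran from 54370181 to 69693905 per library. Of the 59 genes, 56 had 1 RPKM or more in 3 or more libraries and entered the test with all other such genes (7574 in all). Eif2ak3, Eif2ak4 and Eefsec stayed below that level. A fold change below is the log2 of KO over WT on the log2(RPKM + 1) scale, and a gene is called when its limma p-value, adjusted over all 7574 genes, lies under 0.05. The 10 most abundant genes took 44.4 to 48.3% of the reads in WT and 50.2 to 53.9% in KO, and the median log2 fold change of all tested genes was -0.09. With library medians made equal it was 0.01, and with library totals that leave out those 10 genes 0.03. Small differences are therefore read against -0.09, not 0. All 10 markers of the muscle fibre were in the table, summed to 95233 to 104398 RPKM in WT and 106371 to 113368 in KO. Of the Schwann cell markers 6 of 7 were in the table, and their sum was 31.2 to 49.7 RPKM in WT and 7.14 to 9.86 in KO, with all 4 tested ones called lower. The endothelial markers summed to 22.6 to 34.9 RPKM in WT and 18.7 to 20.6 in KO, with Cldn5 called lower. Of the fibroblast markers, which summed to 14.7 to 24.5 RPKM in WT and 22.2 to 26.8 in KO, Col3a1 and Smoc2 were called higher. What part these other cells had in the translation factor values was not tested, and in whole tissue fewer cells of a type and less RNA per cell cannot be told apart.

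In every library a few factors made up a large part of the translation factor mRNA. The mean over the 6 libraries was 286 RPKM for Eef1a2, 234 for Eif3a, 147 for Eef2 and 130 for Eef1g, and these 4 genes took 45.1 to 46.9% of the summed RPKM of all 59 in each library. At the other end, 31 genes had a mean under 10 RPKM. Stress kinases of eIF2 were among the lowest genes: Eif2ak3 (PERK, the kinase of endoplasmic reticulum stress) had a mean of 0.381 RPKM and Eif2ak4 (GCN2, the kinase of amino acid shortage) 0.524. Eefsec, the elongation factor for selenocysteine, had 0.393. Summed over all 59 genes the values were 2002, 1878 and 1680.5 RPKM in WT replicates 2, 3 and 4 and 1513, 1671 and 1660.2 in KO replicates 1, 2 and 3. All KO sums lay below all WT sums on the deposited scale, and the genotypes overlapped under both scaling alternatives described above.

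**Figure D1:**
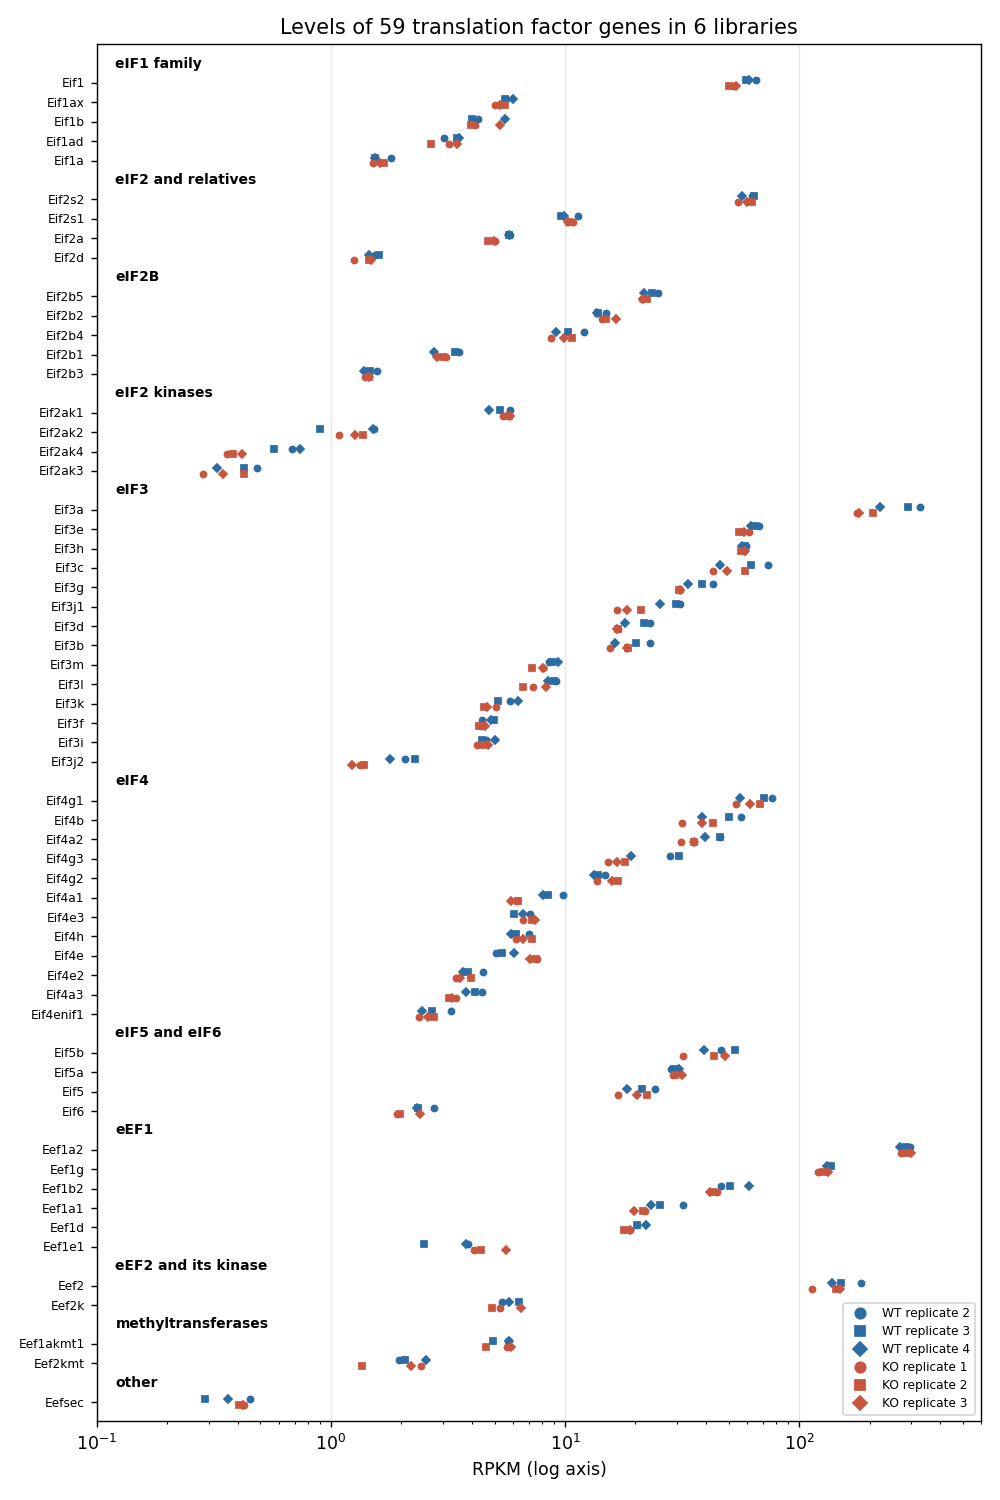
Level of each of the 59 translation factor genes in the 6 libraries. The x axis is RPKM on a log axis, each symbol is 1 library (blue WT, red KO), and genes are grouped by role and sorted by mean. Eef1a2 at the top of its group lies near 286 RPKM and Eif2ak3 near 0.381.

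Most translation factor genes kept near the general shift of the table, and a small number were called, in a test against 0 and not against that shift. In KO muscle 1 of the 56 tested genes rose, Eif4e, and 6 fell: Eif3a, Eif3j1 and Eif3j2 of the eIF3 complex and Eif4a1, Eif4a2 and Eif4g3 of the cap-binding complex. That is 1 called higher where 3.83% of all tested genes were, and 6 called lower where 13.5% were (17.3% in both directions together), so the share of translation factors called was close to that of all genes. Their median log2 fold change was -0.10 against -0.09 over all tested genes, and 46 of the 56 lay below 0 where 67.6% of all tested genes did. At an unadjusted p under 0.05 there were 2 higher and 15 lower, where 7.59% and 25.8% of all tested genes were (33.4% in both directions). KO and WT values did not overlap for 2 tested factors that were higher and 18 that were lower in KO, where 9.22% and 30.0% of all tested genes did so.

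These calls depended on how libraries were scaled and on single libraries. With library medians made equal, 2 factors were called higher (Eif4e and Eef1e1) and 3 lower (Eif3j1, Eif3j2 and Eif4a1), where 7.84% and 9.33% of all tested genes were (17.2% together). With totals that leave out the 10 most abundant genes, Eif4g2 joined those called higher, and the same 3 were called lower, where 8.96% and 8.11% of all tested genes were (17.1% together). Eif3a, Eif4a2 and Eif4g3 were thus called only on the deposited scale and its limma-voom, pseudocount, filter and block alternatives. Leaving out 1 library gave 1 higher and 3 lower without WT replicate 2, 0 and 2 without WT replicate 3, and 1 and 11 without WT replicate 4. It gave 0 and 3 without KO replicate 2. No factor was called in limma without KO replicate 1 (2 higher and 13 lower at an unadjusted p under 0.05) or without KO replicate 3 (1 and 9), where calls over all genes also dropped, from 290 higher and 1021 lower to 149 and 384, and to 117 and 354. The authors' deposited table called no factor at a false discovery rate of 0.05 (1.62% of its genes passed), with 5 higher and 4 lower at an unadjusted p under 0.05. Its log2 fold changes differ from those computed here from the 6 libraries, with a median of 0.01 over the tested genes.

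**Figure D2:**
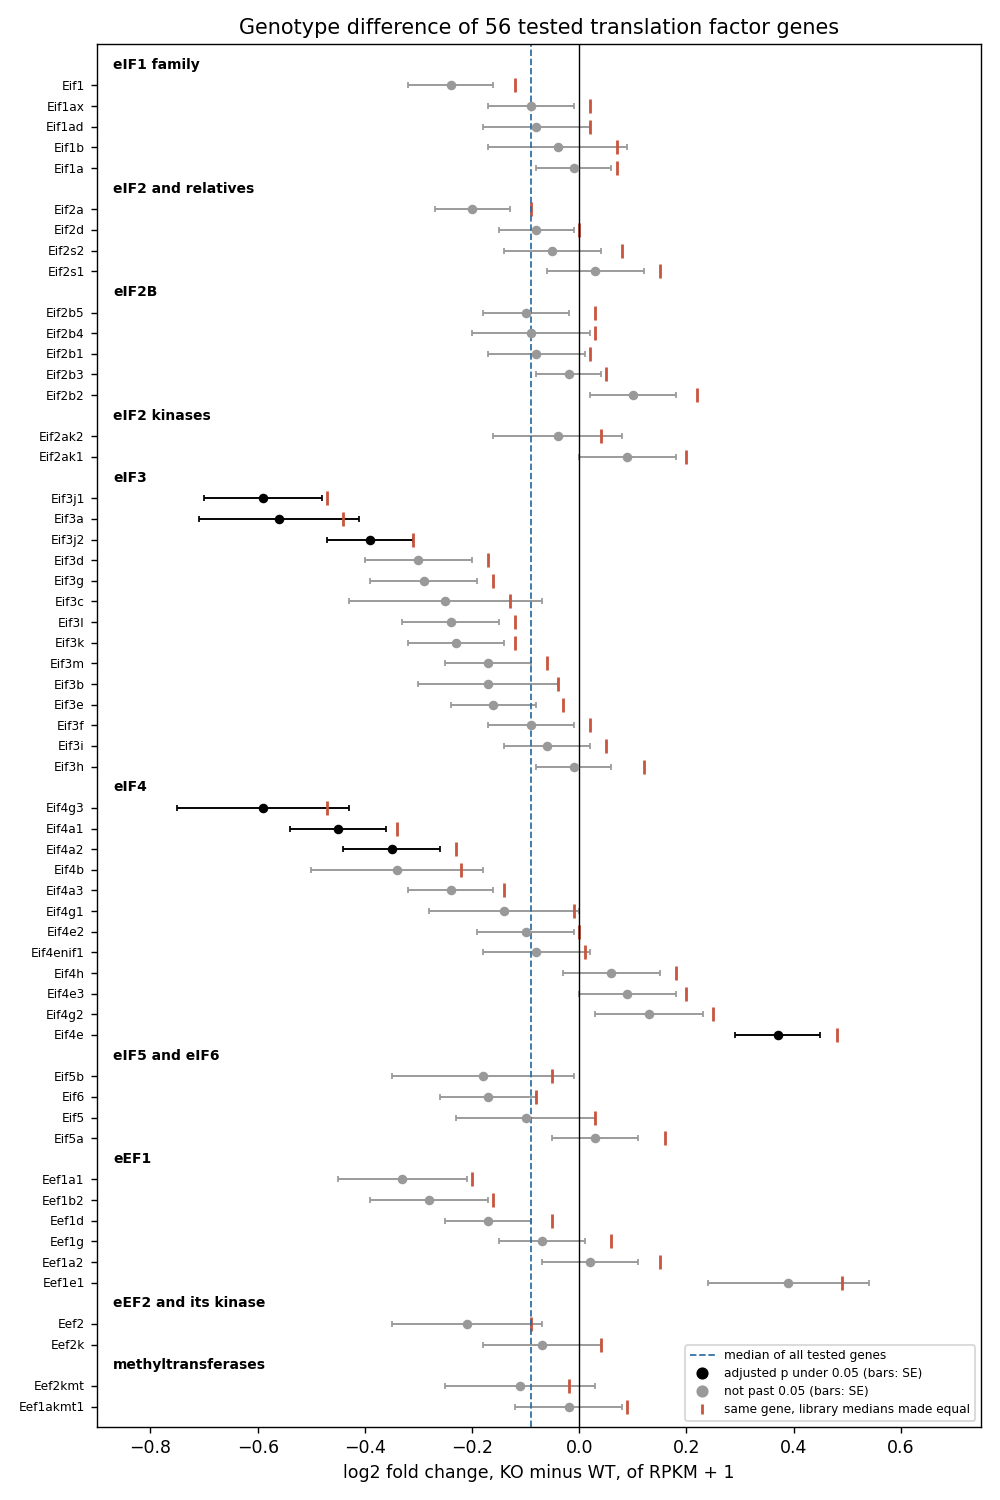
log2 fold change, KO minus WT, of the 56 tested translation factor genes on the log2(RPKM + 1) scale, by role. Points with bars are the estimate and its SE (black where adjusted p is under 0.05), red ticks the same gene with library medians made equal, and the dashed line the median of all tested genes at -0.09. Eif4e lies at 0.37 on the right, and Eif3j1, Eif4g3 and Eif3a lie at -0.59, -0.59 and -0.56 on the left.

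Eif4e encodes the protein that binds the mRNA cap, the step on which most regulation of initiation acts. It lies on chromosome 3 (138526179 to 138559696, plus strand, GRCm38). Its level was 5.08, 5.40 and 6.04 RPKM in WT replicates 2, 3 and 4 and 7.60, 7.52 and 7.09 in KO replicates 1, 2 and 3. All KO libraries lay above all WT libraries. The WT mean was 5.51 ± 0.492 RPKM and the KO mean 7.40 ± 0.276 (SD, n = 3 for both). On the log2 scale Eif4e was higher by 0.37 (SE 0.08, adjusted p = 0.0227). The difference was 0.48 with equal library medians (adjusted p = 0.0159) and 0.54 without the 10 most abundant genes (adjusted p = 0.011). Dropping WT replicate 3, or 1 of the 3 KO libraries, ended the call (adjusted p up to 0.086). The authors' deposited table gives a log2 fold change of 0.46 with a false discovery rate of 0.0549. Of its 50-base stretches 7.2% recur in other transcripts.

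The other cap-binding paralogs were not called. Eif4e2, a weaker cap binder, averaged 4.0 ± 0.413 RPKM in WT and 3.65 ± 0.295 in KO, and Eif4e3, a paralog enriched in muscle, at 6.61 ± 0.519 and 7.10 ± 0.427 (SD, n = 3 each). Their log2 fold changes were -0.10 (adjusted p = 0.477) and 0.09 (adjusted p = 0.496). Eif4e made up 30.5, 35.2 and 36.9% of the summed RPKM of the 3 paralogs in WT replicates 2, 3 and 4 and 43.1, 40.1 and 39.2% in KO replicates 1, 2 and 3. This share does not depend on scaling, and it does not overlap between genotypes. It was computed after the values of Eif4e were seen and has no test. Eif4enif1, which carries eIF4E into the nucleus, stood at 2.80 ± 0.408 and 2.58 ± 0.187 RPKM (adjusted p = 0.588).

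The helicase genes Eif4a1 and Eif4a2, whose proteins unwind the 5′ end of mRNA, both fell on the deposited scale. Eif4a1 (chromosome 11, 69666936 to 69672423, minus strand) had 9.83, 8.45 and 8.07 RPKM in WT replicates 2, 3 and 4 and 6.21, 6.28 and 5.87 in KO replicates 1, 2 and 3. Its log2 fold change was -0.45 (SE 0.09, adjusted p = 0.0144), and it was called under both scaling alternatives at -0.34 (adjusted p = 0.0187 and 0.0266). Without KO replicate 1 or 3 the adjusted p rose to at most 0.0725. Of its 50-base stretches 33.3% occur in other transcripts, mostly the pseudogene Eif4a-ps4, so reads may be shared. Eif4a2 (chromosome 16, 23107444 to 23114136, plus strand), whose exon positions overlap several annotated small RNA genes, had 45.9, 46.0 and 39.6 RPKM in WT and 31.4, 35.5 and 35.4 in KO. Both genes had all WT libraries above all KO libraries. The log2 fold change of Eif4a2 was -0.35 (SE 0.09, adjusted p = 0.0397), -0.23 with equal medians (adjusted p = 0.117), and it was called without WT replicate 4 only among the leave-outs.

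Eif4a2 was the more abundant helicase in every library, by 4.67 to 6.03 times per length. Eif4a1 made up 17.6, 15.5 and 16.9% of the 2 genes' RPKM in WT and 16.5, 15.0 and 14.2% in KO. The means were 16.7 ± 1.07% and 15.3 ± 1.16% (SD, n = 3 each), the groups overlapped, and an exact two-sided permutation test gave p = 0.2. Eif4a3, the related helicase of the exon junction complex, averaged 4.09 ± 0.318 RPKM in WT and 3.31 ± 0.113 in KO (log2 fold change -0.24, adjusted p = 0.0769).

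The scaffold genes of eIF4F differed from each other in level and in change. Eif4g3, a paralog of the main scaffold Eif4g1, had 28.1, 30.7 and 19.2 RPKM in WT replicates 2, 3 and 4 and 15.3, 18.0 and 16.6 in KO. The groups did not overlap, but WT replicate 4 lay nearer to the KO libraries than to the other WT libraries. Its log2 fold change was -0.59 (SE 0.16, adjusted p = 0.043), and -0.47 with equal medians (adjusted p = 0.0692). It was called without WT replicate 4 and lost in each other leave-out (adjusted p up to 0.137). Eif4g1, the main scaffold by level, averaged 67.6 ± 10.7 RPKM in WT and 61.0 ± 7.12 in KO (log2 fold change -0.14, adjusted p = 0.502), and Eif4g2, a scaffold that does not bind eIF4E, at 14.0 ± 0.724 and 15.5 ± 1.61 (0.13, adjusted p = 0.366). Eif4g2 was called higher at 0.28 without the 10 most abundant genes (adjusted p = 0.0494). The helicase cofactors Eif4b, from 48.2 ± 9.08 to 37.7 ± 5.64 RPKM (log2 fold change -0.34, adjusted p = 0.175), and Eif4h, from 6.36 ± 0.593 to 6.69 ± 0.536 RPKM (0.06, adjusted p = 0.663), were not called. Eif4b was called lower without WT replicate 4 (-0.50, adjusted p = 0.039). It was also called lower with the replicate number as a block (-0.38, adjusted p = 0.0197), a fit that compares only replicates 2 and 3 of each genotype.

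**Figure D3:**
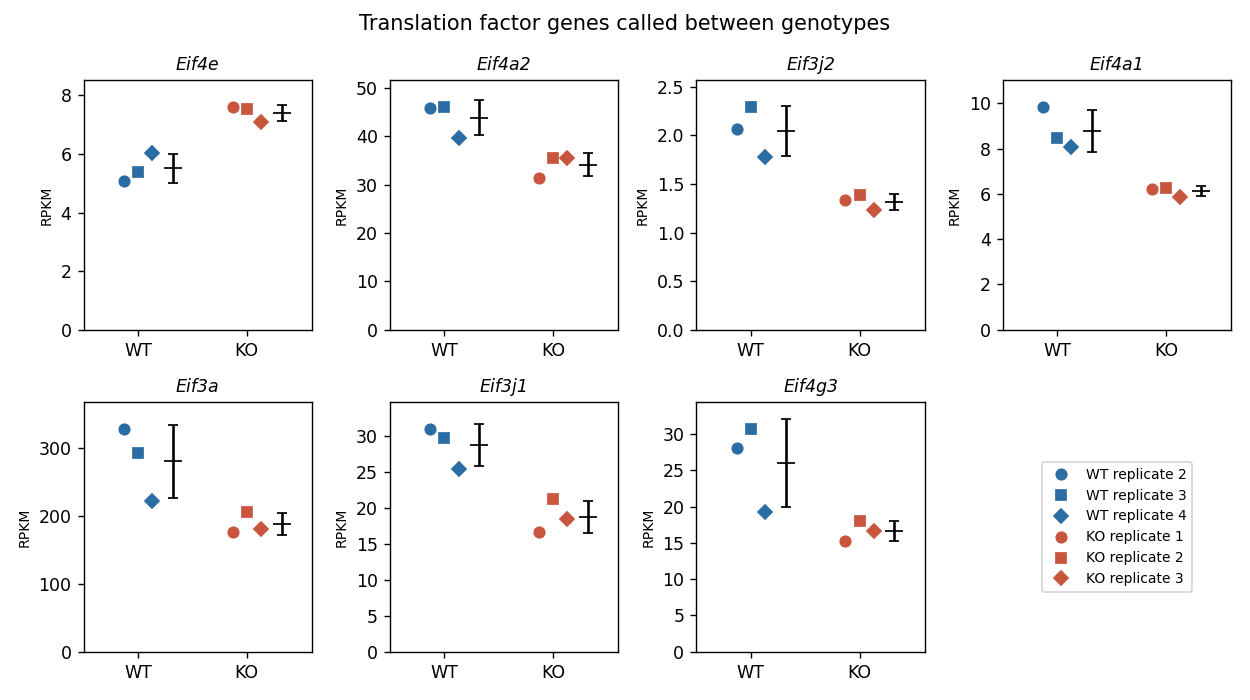
RPKM of the 7 called translation factor genes in each library, on linear axes from 0. Each symbol is 1 library, and the black bar is the mean with its SD (n = 3). In the Eif4e panel the KO libraries (7.09 to 7.60) lie above the WT libraries (5.08 to 6.04), and in the other 6 panels they lie below.

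eIF3 is the largest initiation factor, a scaffold of many subunits on the small ribosomal subunit. All 14 tested subunit genes had a log2 fold change below 0 on the deposited scale, with a median of -0.23, and 3 were called lower, where 67.6% of all tested genes were below 0 and 13.5% called lower. With library medians made equal 11 were below 0 and 3 above, the median was -0.12, and 2 were called lower, where 9.33% of all tested genes were. At these shares the count called is not set apart from that of all genes, and most 50-base stretches of Eif3j2 also occur in Eif3j1. Of those of Eif3j1, 39.4% occur in Eif3j2. Without the 10 most abundant genes the median was -0.11 and 2 were called lower (8.11% of all tested genes). The 3 that then lay above 0 were Eif3f, Eif3h and Eif3i.

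Eif3a, the core subunit of the complex, was the most abundant of them per length. It lies on chromosome 19 (60761117 to 60790658, minus strand). Its level was 328, 292 and 222 RPKM in WT replicates 2, 3 and 4 and 176, 206 and 180.1 in KO replicates 1, 2 and 3. The groups did not overlap, though WT replicate 4 lay nearer to each KO library than to either of the other WT libraries. The log2 fold change was -0.56 (SE 0.15, adjusted p = 0.0368), and -0.44 with equal medians (adjusted p = 0.0541). It was called only without WT replicate 4 among the leave-outs. No other annotated gene overlaps its exons and none of its 50-base stretches occurs elsewhere.

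Eif3j1, which encodes a loosely attached subunit that helps place mRNA in the ribosome, had 31.0, 29.8 and 25.4 RPKM in WT and 16.7, 21.2 and 18.4 in KO. It lies on chromosome 2 (122028546 to 122056598, plus strand). Its log2 fold change was -0.59 (SE 0.11, adjusted p = 0.0127), and it was called under both scaling alternatives (-0.47, adjusted p = 0.0149, and -0.46, adjusted p = 0.0178). The call held in 4 of 6 leave-outs and ended without KO replicate 1 or 3, with adjusted p up to 0.0592. 19.0% of its exon bases overlap Spg11 on the opposite strand. Eif3j2 (chromosome 18, 43475418 to 43477796), a near copy on another chromosome, had 2.07, 2.29 and 1.78 RPKM in WT and 1.33, 1.39 and 1.23 in KO (log2 fold change -0.39, SE 0.08, adjusted p = 0.0172), and its call held in 3 of 6 leave-outs, ending without WT replicate 3 or KO replicate 1 or 3. Since 90.8% of its 50-base stretches occur in Eif3j1, most of its reads could not be told from those of Eif3j1 by sequence, and the pair is not 2 separate observations. Summed, the pair averaged 30.8 ± 3.19 RPKM in WT and 20.1 ± 2.28 in KO.

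The other eIF3 subunits were spread over a wide range of levels and none was called. The abundant ones were Eif3e at 61.4 RPKM, Eif3h at 58.0 and Eif3c at 55.5 (mean of 6 libraries). Eif3d (-0.30, adjusted p = 0.083) and Eif3g (-0.29, adjusted p = 0.0844) came closest to a call. In GENCODE M21 43.3% of the 4968 exon bases of Eif3d overlap an antisense gene. The length fitted for its reads was 1910 bases, so how much of the counted sequence overlaps is not known. Eif3h overlapped between genotypes, with 59.2, 58.5 and 56.9 RPKM in WT and 58.3, 56.6 and 58.9 in KO. Summed over the 14 genes, eIF3 summed to 684, 622 and 516 RPKM in WT and 448, 493 and 462 in KO. Without Eif3a the sums were 355, 330.3 and 294 in WT and 273, 286 and 282 in KO, without overlap on the deposited scale. Under both scaling alternatives the sums with Eif3a still did not overlap, and those without Eif3a did. Without the 10 most abundant genes the gap was narrow, with 995 in WT replicate 4 and 989.5 in KO replicate 2. The share of Eif3a in the sum was 48.0, 46.9 and 43.0% in WT and 39.2, 41.9 and 38.9% in KO, without overlap. These sums were looked at after the subunit values were seen, and with 3 against 3 libraries an exact permutation test cannot go below p = 0.1.

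The start codon factors of the eIF1 family were all below 0 by -0.01 to -0.24 on the deposited scale and none was called (1 lower at an unadjusted p under 0.05 in limma, 0 called in limma-voom). With equal medians 4 of the 5 were above 0. Eif1, which guards the choice of start codon, was the leading one at 65.2, 59.6 and 60.8 RPKM in WT and 52.1, 50.3 and 54.0 in KO. The groups did not overlap (log2 fold change -0.24, SE 0.08, adjusted p = 0.0699), and 31.6% of its 50-base stretches occur in other transcripts. Eif1ax, Eif1b, Eif1ad and Eif1a had means of 1.62 to 5.50 RPKM.

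The eIF2 system, which brings the initiator tRNA and is the target of the integrated stress response, showed no call (0 in limma-voom too, and 1 lower of 11 tested at an unadjusted p under 0.05, Eif2a). Eif2s1, the subunit that is phosphorylated under stress, averaged 10.3 ± 0.991 RPKM in WT and 10.5 ± 0.235 in KO (log2 fold change 0.03, adjusted p = 0.831). Eif2s2, the beta subunit, was the more abundant at 61.3 ± 3.80 and 59.1 ± 3.91 RPKM. Eif2a, a separate initiation factor despite its name, had 5.84, 5.76 and 5.79 RPKM in WT and 5.02, 4.71 and 4.99 in KO (-0.20, adjusted p = 0.0902), without overlap. Of eIF2B, the exchange factor that recharges eIF2, the catalytic subunit Eif2b5 stood at 23.3 ± 1.61 and 21.7 ± 0.474 RPKM and Eif2b2 at 14.2 ± 0.743 and 15.3 ± 1.08 (0.10, adjusted p = 0.431). The direction of eIF2B turned with scaling: 4 of 5 subunits were below 0 on the deposited scale and all 5 above 0 with equal medians or without the 10 most abundant genes.

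Among the kinases that phosphorylate eIF2, Eif2ak1 (HRI, the kinase of haem shortage) was the most abundant at 5.28 ± 0.550 RPKM in WT and 5.65 ± 0.202 in KO (adjusted p = 0.524). Eif2ak4 had 0.683, 0.572 and 0.737 RPKM in WT and 0.359, 0.381 and 0.415 in KO. All KO libraries lay below all WT libraries. It was under the level needed for the test, and with no such level it was called lower. Eif2ak3 had 0.327 to 0.483 RPKM in WT and 0.285 to 0.424 in KO, which overlap.

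The factors of the last steps of initiation and the elongation factors gave no call on the deposited scale with all 6 libraries and no block. Eif5, which makes eIF2 hydrolyse its GTP, averaged 21.3 ± 2.97 RPKM in WT and 19.9 ± 2.71 in KO (log2 fold change -0.10, adjusted p = 0.637). Eif5a, which carries the amino acid hypusine and helps stalled ribosomes, stood at 29.4 ± 1.14 and 30.1 ± 1.40 RPKM (0.03, adjusted p = 0.806). Eif5b, which joins the subunits, ranged from 39.4 to 53.0 RPKM in WT and from 31.8 to 48.2 in KO, and Eif6, which keeps the large subunit apart, stood at 2.48 ± 0.240 and 2.10 ± 0.267 RPKM. In this group 0 of 4 genes reached an unadjusted p under 0.05 in limma and 0 were called in limma-voom. Of the 6 eEF1 genes an unadjusted p under 0.05 was reached by 1 that was higher and 2 that were lower, and limma-voom called 0.

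Elongation is where muscle has its own paralog. Eef1a2, the muscle and neuron form of eEF1A, had 297, 287 and 269 RPKM in WT replicates 2, 3 and 4 and 272, 289.6 and 302 in KO, which overlap (log2 fold change 0.02, SE 0.09, adjusted p = 0.912). Eef1a1, the widespread form, had 31.8, 25.4 and 23.4 in WT and 22.0, 21.5 and 19.8 in KO, which do not overlap (-0.33, SE 0.12, adjusted p = 0.0954). Eef1a1 was called lower without WT replicate 4 (-0.41, adjusted p = 0.0397) and stood at -0.20 without WT replicate 2. It was also called lower with the replicate number as a block (-0.45, adjusted p = 0.0198), which compares only replicates 2 and 3 of each genotype. Eef1a2 exceeded Eef1a1 per length by 9.33 to 11.5 times in WT and 12.3 to 15.3 times in KO. The share of Eef1a2 in the pair was 90.3, 91.9 and 92.0% in WT and 92.5, 93.1 and 93.9% in KO. The difference was 1.76 percentage points (91.4 ± 0.932 against 93.1 ± 0.677, SD, n = 3 each) and did not overlap, with an exact two-sided permutation p = 0.1, the smallest that 3 against 3 can give. Since 59.2% of the 50-base stretches of Eef1a1 occur in other transcripts and none of those of Eef1a2 do, the level of Eef1a1 is the less certain of the 2.

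The exchange factor subunits that reload eEF1A were not called: Eef1g, the most abundant, averaged 133 ± 3.18 RPKM in WT and 127 ± 5.90 in KO, and Eef1b2 and Eef1d lay lower without overlap (adjusted p = 0.107 and 0.167). Of the 50-base stretches of Eef1g, 64.3% occur in other transcripts, so its level is uncertain as well. Eef1e1, a component of the complex of tRNA synthetases, moved the other way. It had 3.84, 2.50 and 3.76 RPKM in WT and 4.10, 4.36 and 5.59 in KO (log2 fold change 0.39, SE 0.15, adjusted p = 0.114). It was called higher with equal medians (0.49, adjusted p = 0.0406) and without the 10 most abundant genes (0.57, adjusted p = 0.0451). Its lowest library held 140 reads. Eef2, the translocase, ranged from 138 to 183 RPKM in WT and from 114 to 149 in KO (-0.21, adjusted p = 0.319), and Eef2k, the kinase that switches it off, stood at 5.83 ± 0.505 and 5.54 ± 0.844 RPKM (-0.07, adjusted p = 0.705). The methyltransferases Eef1akmt1 (5.45 ± 0.468 and 5.38 ± 0.675) and Eef2kmt (2.19 ± 0.315 and 1.99 ± 0.555) overlapped between genotypes. Neither eEF2 with its kinase nor the methyltransferases had a gene at an unadjusted p under 0.05 in limma, or a call in limma-voom.

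**Figure D4:**
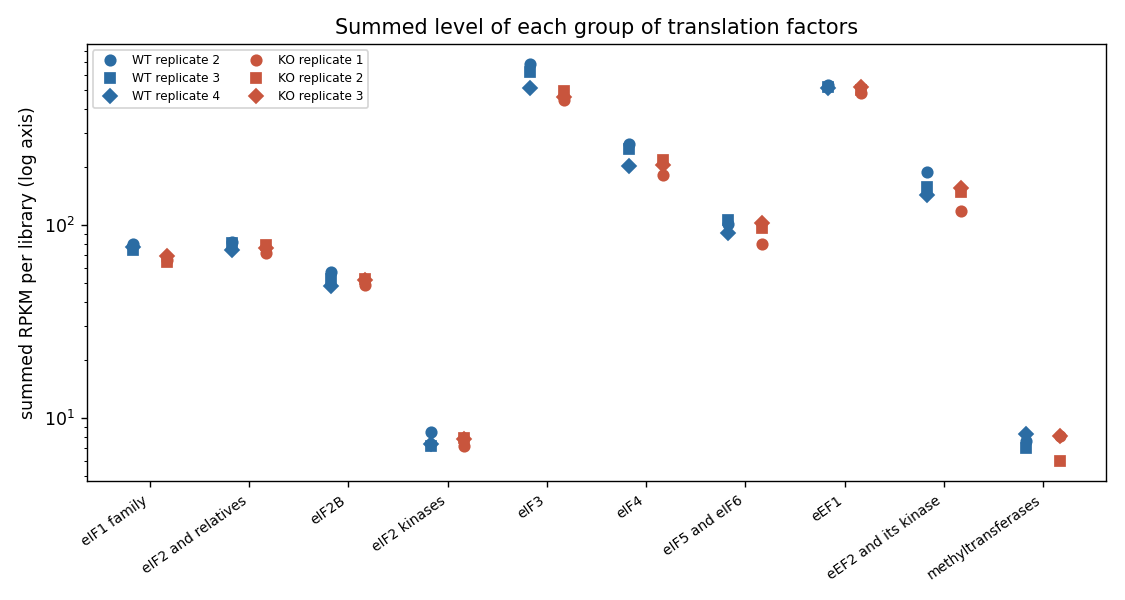
Summed RPKM of each role group per library, on a log axis. Each symbol is 1 library (blue WT, red KO). The eIF3 sums lie at 516 to 684 RPKM in WT and 448 to 493 in KO and the eIF1 sums at 74.1 to 79.9 and 64.2 to 69.6, and these 2 groups do not overlap on this scale, whereas the eEF1 sums at 512 to 531 and 482 to 521 do. Under both scaling alternatives the eIF1 sums overlap and the eIF3 sums do not. The sums of eIF2B and of the eIF2 kinases do not overlap there either, with KO higher. The eEF1 sums do not overlap, with KO higher, only without the 10 most abundant genes.

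The libraries differed within each genotype, and the shares over all genes of the table are given beside those of the factors. WT replicate 2 was the highest of all 6 libraries for 31 of the 59 genes (52.5%, and 46.6% of all 11815 genes), and KO replicate 1 the lowest for 24 (40.7%, and 31.6%). Within WT, replicate 4 was the lowest for 36 (61.0%, and 41.9%). The median coefficient of variation of the tested factors was 9.47% in WT and 6.49% in KO, against 11.3 and 8.05% over all tested genes. In both genotypes the median variation of the factors lay below that of all tested genes.

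Other genes of translation were taken from 5 lists: 72 were tested, 1 rose and 6 fell. The background shares of all tested genes are the 3.83 and 13.5% given above, and the largest changes were in Ppp1r15a and Eif4ebp1. Eif4ebp1, which encodes the 4E-BP1 repressor that binds eIF4E and blocks its partner, had 27.3, 19.1 and 13.9 RPKM in WT and 6.14, 8.30 and 8.66 in KO. The groups did not overlap (log2 fold change -1.24, SE 0.22, adjusted p = 0.00994), and the call held under both scaling alternatives and in 6 of 6 leave-outs (adjusted p up to 0.0398). The ratio of Eif4e to Eif4ebp1 was 0.186, 0.283 and 0.435 in WT and 1.24, 0.907 and 0.818 in KO. This ratio was formed after both values were seen and has no test. Ppp1r15a, which directs a phosphatase to eIF2, had 98.6, 67.3 and 35.8 RPKM in WT and 18.1, 24.0 and 19.6 in KO (-1.56, SE 0.31, adjusted p = 0.0152). It lost its call in 3 of 6 leave-outs (adjusted p up to 0.0605).

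The remaining changed partners were smaller. Pdcd4, which binds and blocks eIF4A, fell from 9.27 ± 0.524 to 7.26 ± 0.517 RPKM (adjusted p = 0.0396), and Mknk1, a kinase of eIF4E, from 2.52 ± 0.153 to 1.77 ± 0.0701 (adjusted p = 0.016). Pabpn1, the nuclear poly(A)-binding protein, fell from 29.5 ± 0.493 to 23.4 ± 0.248 (adjusted p = 0.0208) and Abtb1 from 1.46 ± 0.0443 to 1.03 ± 0.091 (adjusted p = 0.025). These 4 calls held in 1 to 3 of 6 leave-outs. With equal medians 4 of the 6 were called lower and without the 10 most abundant genes 3, where 9.33% and 8.11% of all tested genes were. Pabpn1 (adjusted p = 0.125 and 0.13) and Pdcd4 (0.142 and 0.148) lost their calls under both scalings. Abtb1 lost its call without the 10 most abundant genes (adjusted p = 0.0551). Aimp2, a scaffold of the tRNA synthetase complex, was the only one called higher, at 10.1 ± 2.09 and 14.9 ± 2.07 RPKM (adjusted p = 0.0476), with its call holding in 1 of 6 leave-outs, and its exons overlap those of Eif2ak1 on the opposite strand. Of 10 termination and recycling genes none was called (0 at an unadjusted p under 0.05 and 0 in limma-voom), and of 10 mitochondrial translation factors none (2 lower at an unadjusted p under 0.05, 0 in limma-voom). Of 22 tRNA synthetase genes 1 was called, Aimp2.

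Sequences upstream of the called genes are shown because 6 of these genes were called lower, so that their upstream letters can be compared. RefSeq promoters (GRCm38.p6) were matched for 47 of the 59 genes and 6 of the 7 called ones. In the 250 bases before each start 6 motifs were searched on both strands, chosen after the gene values were seen, none contained in another: the E-box CACGTG, CRE TGACGTCA, ETS CCGGAAGT, YY1 AAGATGGC, CARE TGATGCAA and the palindromic NRF1 motif. The E-box was in 10 of 47 translation factor genes (21.3%) and in 6.86% of 27025 genes with a promoter. These 27025 include genes outside the 11815 of the deposited table. The share among the tested genes was not computed, so the motif shares are not set against genes of like expression. ETS was in 4 (8.51% against 3.23%), NRF1 in 1 (2.13% against 0.877%), YY1 in 1 (2.13% against 1.83%), and CRE and CARE in none (1.77 and 0.918% of all genes). A gene may have more than 1 start, and a match is a description of letters only. The E-box genes were Eef2, Eef2k, Eif1b, Eif3f, Eif3k, Eif4a1, Eif4e, Eif4g1, Eif4h and Eif5a. They hold 1 gene that rose, 1 that fell and 8 that were not called.

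The upstream windows of Eif4a1 and Eif3a, the called genes whose window touches no annotated exon, are chr11:69672424-69672673 and chr19:60790694-60790943, both on the minus strand, and capitals mark motif letters. For Eif4e 2 stretches of 30 bases around its E-boxes are shown, chr3:138527028-138527057 and chr3:138527192-138527221 on the plus strand. The E-boxes lie 228 and 64 bases before a RefSeq start, in a window that an exon of an annotated Eif4e transcript overlaps.
Eif4a1: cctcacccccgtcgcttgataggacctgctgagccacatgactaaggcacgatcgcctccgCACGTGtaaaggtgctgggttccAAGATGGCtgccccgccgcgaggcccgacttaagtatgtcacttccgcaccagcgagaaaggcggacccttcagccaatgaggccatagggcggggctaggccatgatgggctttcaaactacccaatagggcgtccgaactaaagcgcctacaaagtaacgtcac
Eif3a: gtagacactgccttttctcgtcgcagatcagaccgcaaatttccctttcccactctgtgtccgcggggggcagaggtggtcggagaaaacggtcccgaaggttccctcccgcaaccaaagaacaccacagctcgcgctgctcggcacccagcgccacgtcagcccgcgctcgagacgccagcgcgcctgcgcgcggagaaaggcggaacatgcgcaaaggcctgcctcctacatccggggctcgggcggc
Eif4e distal E-box: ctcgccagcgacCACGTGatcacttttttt
Eif4e proximal E-box: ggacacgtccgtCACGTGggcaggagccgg
Eif4a1, which fell, has an E-box 189 bases and a YY1 match 166 bases before its start. Eif4e, which rose, has both of its E-boxes in the window of that start, and the window of its other RefSeq start, chr3:138525941-138526190, holds none of the 6 motifs. Eif3a, which was called lower on the deposited scale, has none of the 6 motifs in its window. The windows of Eif3j1, Eif4a2 and Eif4g3 hold none of the 6 either and are not shown because annotated exons reach into them.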

How the data were processed

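Per the labels' protocols, mRNA was fragmented and copied with random hexamers. GRCm39 is the build in the submitters' processing notes; not given in the sources used here are the aligner, counter, annotation, strand handling and the test behind the authors' deposited log2 fold changes, log2 CPM, F score and p-value and FDR columns. The authors deposited 1 table of RPKM values. Its header gives no unit. RPKM was inferred because values multiplied by gene length and by a library total came out as whole reads (within 0.02 of a read). The totals were not given and were fitted so that these products came out whole. With lengths from GENCODE M21 the reads were whole for 9227 genes. For the other genes a length that gave whole reads was searched for, so the 100.0% of genes with whole reads was partly built in. No value column was left unmapped.

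The main test was limma-trend (limma 3.58.1, R 4.3.3) on log2(RPKM + 1), which understates the change of low genes, with genotype as the only term, on genes with 1 RPKM or more in 3 or more libraries, two-sided, Benjamini-Hochberg over all 7574 genes. SDs are of RPKM. The fit was also run on simulated reads, with larger changes than those of the called factors and no general shift between genotypes. That run does not bear on the calls here. Alternatives were a pseudocount of 0.1, no filter, equal library medians, totals without the 10 most abundant genes, each replicate left out, the replicate number as a block, and limma-voom on the recovered reads. Sums, shares and exact permutation tests used Python 3.11.15 (pandas 2.3.3, numpy 2.4.6, scipy 1.17.1), and figures matplotlib 3.10.9. Shared 50-base stretches, overlaps and coordinates are of GENCODE M21 on GRCm38, not the build of the notes.

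The members and lists were chosen with earlier results of these data known. The genes named are those called, the member of each role group with the smallest p and with the highest mean, a set list of well-known factors and the called partners; the eIF3 subunits, Eif4e2, Eif4enif1, Eif4a3, Eef1b2, Eef1d, Eef1g and Eef1e1 beyond that rule, the sums without Eif3a, the ratios and the motifs were chosen after values were seen.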

Additional observations from a re-analysis of the deposited data

How the results depend on the processing

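The smaller pseudocount of 0.1, testing without the filter, and limma-voom changed no call of a named, tested factor, and Eif2ak4 is called when the filter is dropped. Scaling and single libraries both moved the calls. With equal library medians and without the 10 most abundant genes respectively, factors called higher were 2 and 3 (1 in the main fit) and lower 3 and 3 (6), the partners called lower without those genes 3 (6), all genes called higher 594 and 679 (290) and, without those genes, lower 614 (1021), and the factors' median 0.01 and 0.03 (-0.10). Under the same scalings the direction turned for Eef1akmt1 (0.09 and 0.12), Eef2k (0.04 and 0.06), Eif2b5 (0.03 and 0.05), Eif2s2 (0.08 and 0.10), Eif5 (0.03 and 0.05) and, without the 10 genes, Eif4g1 (0.01), none of them called. The log2 ratio of summed RPKM turned for eIF2 (0.07 and 0.09), eIF2B (0.09 and 0.11), the eIF2 kinases (0.12 and 0.14), eIF5 and eIF6 (0.03 and 0.05), eEF1 (0.07 and 0.09) and the methyltransferases (0.08 and 0.10). The eIF1 sum moved from -0.21 to -0.08 and -0.06 and then overlapped between genotypes. The cause was not tested beyond the scaling itself.

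With single replicates left out the factors called ranged from 0 to 1 higher and 0 to 11 lower, partners from 0 to 1 and 1 to 14, all genes from 117 to 344 and 354 to 1293, and the factors' median from -0.15 to -0.07. Directions of uncalled values turned for Eef1a2 (-0.02 to 0.06), Eef1akmt1 (-0.08 to 0.07), Eef2k (-0.17 to 0.01), Eef2kmt (-0.21 to 0.05), Eif2s1 (-0.01 to 0.10), Eif5 (-0.20 to 0.01) and Eif5a (-0.00 to 0.06), and for the sums of eIF2B (-0.10 to 0.02), the eIF2 kinases (-0.06 to 0.08), eIF5 and eIF6 (-0.17 to 0.01) and the methyltransferases (-0.12 to 0.08). The 7 called factors kept their direction in all 6 leave-outs, and each lost its call in at least 1.

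Genotypes share only the replicate numbers 2 and 3, and deviations of same-numbered libraries correlated at 0.479 and 0.27. Those of differently numbered libraries correlated at -0.389 to 0.431, the highest being WT replicate 4 with KO replicate 1. With under 3 pairs, same-numbered libraries are taken to share only a number. With the replicate number as a block, 1 factor was called higher and 11 lower, 11 partners lower, and Eif2s1 turned to -0.01. WT replicate 4 and KO replicate 1 each have a number of their own, so the block fit compares only replicates 2 and 3 of each genotype. Over all genes the median of the lowest library's reads was 294; how depth limits the calls was not tested.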
